A study of Mus musculus with 8 samples.

Results

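Planar cell polarity genes were followed in the RNA of sorted cochlear hair cells, in 10 rows of the deposited table of 25343 genes: Vangl1, Vangl2, Celsr1, Celsr2, Celsr3, Prickle1, Fzd3 and Fzd6, and the bundle orientation genes Gpsm2 and Gnai3. They were chosen by gene name, and each name matched 1 row. The study compared wild-type mice with Ndp knockout mice, which lack norrin, a secreted ligand of the frizzled receptor Fzd4. Both groups had a mixed C57BL/6 and 129 background, were 4 to 6 days old after birth, and had their hair cells sorted by the marker Atoh1-GFP. Each genotype had 4 libraries, each made from a tube of 12 to 20 pooled sensory epithelia, so a library averages several ears, and cDNA was made from picograms of RNA. Neither the knockout allele nor the sex of the mice or the animals behind each pool is stated in the labels. The p-values therefore describe the spread among these 8 libraries, part of which may be technical.

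Planar cell polarity is the alignment of cells within the plane of an epithelium. Celsr cadherins bridge the membranes of neighbouring cells, frizzled proteins gather on 1 side of the junction with Dishevelled, and Vangl proteins gather on the opposite side with Prickle. In the cochlea these proteins set the common direction in which the stereocilia bundles of hair cells point. Inside each hair cell, the protein of Gpsm2 and the G protein subunit encoded by Gnai3 mark the bare zone beside the bundle and later the tips of the tallest stereocilia, and they help to place and lengthen the bundle. Norrin signals mainly through beta-catenin, which is a separate branch of frizzled signalling.

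Several members are paralogs, so runs of 31 bases shared with other genes were searched for in the GENCODE M21 annotation (GRCm38, the mm10 build of the table). From each member 1 transcript, the protein-coding one with the longest coding sequence, was compared with all transcripts of other genes. Between members, 1 coding run was shared, of 32 bases in Celsr1 and Celsr3. It is shown with 15 bases on each side, next to the most similar stretch of Celsr2. A short read from this coding run could fit a second member. The stretches lie in single exons at chr15:85978811-85978872 (minus strand, Celsr1), chr3:108406959-108407020 (minus strand, Celsr2) and chr9:108832058-108832119 (plus strand, Celsr3). Capitals mark the 49 of 62 bases that are identical in all 3 genes.
Celsr1: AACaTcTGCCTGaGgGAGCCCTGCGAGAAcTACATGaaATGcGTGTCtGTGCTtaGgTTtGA
Celsr2: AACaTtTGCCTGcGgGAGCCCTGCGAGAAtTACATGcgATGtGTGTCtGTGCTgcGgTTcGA
Celsr3: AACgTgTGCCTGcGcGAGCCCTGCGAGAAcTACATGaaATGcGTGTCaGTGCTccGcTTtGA
Celsr2 matched 28 of the 32 bases of the shared run. The run made up 2 of 10849 positions of 31 bases in the Celsr1 transcript. In this search Vangl1 and Vangl2 shared no run of 31 bases with each other, nor did Fzd3 with Fzd6. The transcripts of Gnai3, Celsr2 and Prickle1 shared none with any other gene. They held 3262 of 3262, 10598 of 11513 and 4144 of 4345 exonic bases of their genes, and that of Vangl2 held 2349 of 6990. Exons outside the chosen transcript of a member were not compared with genes other than the members. Fzd3 and Vangl2 shared a longer run, of 51 bases, in the untranslated part of Fzd3, where a short read could also fit both. In all, the Fzd3 transcript shared runs with 2790 genes and the Vangl1 transcript with 1432, the longest of Vangl1 being 75 bases, also untranslated. Such runs made up 0.535% of the positions in Fzd3 and 1.62% in Vangl1. Where 2 genes overlap on opposite strands, their reads cannot be told apart, because the library kit keeps no strand information. Gpsm2 overlaps 203 exonic bases of Clcc1, Fzd6 overlaps 152 of Gm26704, and Vangl1 overlaps 8 of Gm16160, all on the opposite strand.

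The members lie on 5 chromosomes in the table's mm10 coordinates. Gnai3 (ENSMUSG00000000001, chromosome 3, 108107280 to 108146146, minus strand), Celsr2 (ENSMUSG00000068740, chromosome 3, 108390851 to 108415552, minus strand) and Gpsm2 (ENSMUSG00000027883, chromosome 3, 108678638 to 108722309, minus strand) fall within 615 kb. Vangl1 (ENSMUSG00000027860, chromosome 3, 102153583 to 102204693, minus strand) lies farther off on the same chromosome. Celsr1 (ENSMUSG00000016028, 85898929 to 86033777, minus strand), Prickle1 (ENSMUSG00000036158, 93499114 to 93595891, minus strand) and Fzd6 (ENSMUSG00000022297, 39006034 to 39038188, plus strand) are on chromosome 15. Vangl2 (ENSMUSG00000026556, 172000960 to 172028444, minus strand) is on chromosome 1, Celsr3 (ENSMUSG00000023473, 108826320 to 108852969, plus strand) on chromosome 9, and Fzd3 (ENSMUSG00000007989, 65192449 to 65262463, minus strand) on chromosome 14.

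Each library held 35077950 to 48329827 reads, counted after turning the deposited normalized counts (gene counts divided by 1 size factor per library) back into whole reads. Ndp, the targeted gene, averaged 146 ± 53.2 normalized counts in wild-type and 36.2 ± 24.9 in knockout libraries (SD, n = 4 each), with every knockout library below every wild-type library. Its limma adjusted p was 0.895, so it was not called. The 12 hair cell markers and the 12 supporting cell markers were present in every library. Hair cell markers summed to 367931 to 449035 normalized counts in wild-type and 379540.0 to 429519 in knockout libraries. Supporting cell markers summed to 273181 to 499285 and 302001 to 436931, so the sorted material held RNA of both cell types, and members expressed in both cannot be assigned to either. Of the 12 supporting cell markers, 8 had a negative and 4 (Slc1a3, Gjb6, Gjb2 and Tecta) a positive log2 difference. At an unadjusted p under 0.05 in limma, 3 of them (Sox2, Hes5 and Hey1) were lower in the knockout and 0 were higher, where 2.47% of all genes tested were lower and 3.1% higher. By the same measure 1 hair cell marker was higher and 1 lower of 12, 2 of 9 mesenchyme markers (Col1a2 and Coch) and 2 of 7 macrophage markers (C1qa and Lyz2) were higher, 1 of 8 tested neuron and glia markers (Nefm) was lower, and 1 of 4 endothelial markers (Tek) was higher. Limma called 0 of these markers at an adjusted p of 0.05, and DESeq2 called Coch (adjusted p = 0.0119). Macrophage markers summed to 267 to 2035 normalized counts in wild-type and 1052 to 2753 in knockout libraries, with Ptprc at 0 in wild-type replicate 4. Lyz2 had 1061, 21.0, 4.68 and 121 normalized counts in wild-type libraries 1 to 4, the first above every knockout library. Its log2 difference was 3.20 in limma, where low values weigh heavily, and 1.04 in edgeR (quasi-likelihood test, unadjusted p = 0.382). Mesenchyme markers summed to 17565 to 24327 and 21334 to 30335, neuron and glia markers to 23093 to 31787 and 26024 to 30529, and endothelial markers to 2540.2 to 4237 and 2963 to 4318. The endothelial sum was nearly all Egfl7, which averaged 3186 of a mean sum of 3231 in wild type and 3445 of 3518 in the knockout. Pecam1, Cdh5 and Tek averaged only 27.8, 11.5 and 5.64 in wild type, with Tek at 0 in wild-type replicates 1 and 2. Kdr and Cldn5, also listed as endothelial markers, had no row. The part of these other cell types in the members' differences was not tested. Fewer cells of a type and less RNA per cell cannot be told apart in such bulk samples.

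All 10 members were detected in every library, with 147 to 11916 reads per gene and library, and all passed the minimum for testing, a normalized count of 10 in 4 libraries. Levels were compared between genes as normalized counts per kb of annotated exon. In wild type the orientation gene Gpsm2 had the highest level, 2064 ± 391 per kb, followed by Gnai3 with 1761 ± 462 (SD, n = 4 each). The frizzled gene Fzd6 had 939.7 ± 308 per kb and Vangl2, the better known Vangl gene of the inner ear, had 395 ± 60.9 (SD, n = 4 each). Fzd3 had 316 ± 99.8, Vangl1 had 297 ± 82.7, Celsr1 had 133 ± 35.1 and Celsr2 had 92.2 ± 18.6 per kb (SD, n = 4 each). Prickle1 had 79.8 ± 23.9 per kb and Celsr3, the family member best known from neurons, had the lowest level, 20.2 ± 7.11 (SD, n = 4 each).

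**Figure D1:**
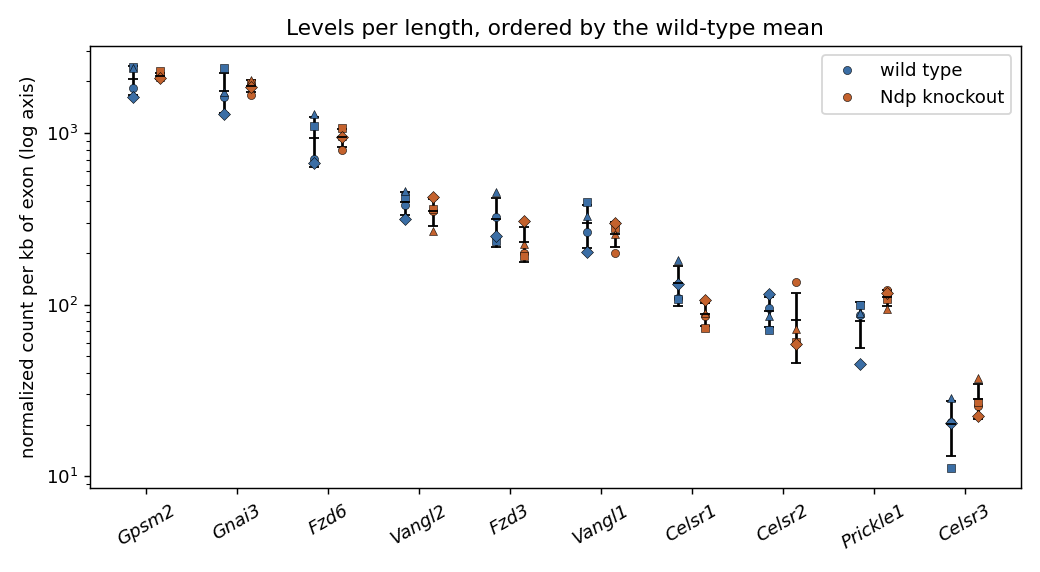
Normalized counts per kb of annotated exon (log axis) of the 10 members, ordered by the wild-type mean. Points are libraries (shape gives the replicate), dashes and bars are the mean and SD of each genotype. Gpsm2 and Gnai3 stand at the top in both genotypes and Celsr3 at the bottom.

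Gpsm2 was above Gnai3 in all 8 libraries, although the SDs of their levels per kb overlapped. Fzd6 stood between these 2 genes and Vangl2 in every library. Fzd3 and Vangl1 did not separate: Fzd3 was above Vangl1 in 3 of 4 wild-type and 1 of 4 knockout libraries. Celsr2 and Prickle1 did not separate in wild type either, with Celsr2 above in 2 of 4 libraries and, in the knockout, in 1 of 4. Celsr3 was below Prickle1 in all 8 libraries, by 3.96 times in wild type. Per kb of coding sequence the wild-type order changed at 3 places. Gnai3 (5410.2) then stood above Gpsm2 (3961), Fzd3 (2026) above Vangl2 (1641), and Prickle1 (139) above Celsr2 (121). Among 18195 tested genes with a length, the mean level of Gpsm2 over all libraries was at percentile 93.8 and that of Celsr3 at percentile 24.1.

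The comparison of genotypes asked whether loss of norrin changed these genes. No member passed limma at an adjusted p of 0.05: 0 of 10 were called, against 0.00549% of the 18203 genes tested, which is 1 gene, CR974586.1, named after its value was seen. edgeR's quasi-likelihood test called 0 of 10 members (0% of its genes) and DESeq2 0 of 10 (0.136% of its genes). At an unadjusted p under 0.05, 1 member was lower in the knockout (2.47% of all genes tested were) and 0 were higher (3.1% were). The same member, Celsr1, was the 1 whose genotypes did not overlap, where 1.58% of all genes lay wholly lower and 1.46% wholly higher in the knockout. Of the members, 5 had a negative and 5 a positive log2 difference, with a median of -0.06, beside 0.02 for all genes tested. The median size of the difference, regardless of sign, was 0.209 for the members and 0.205 for all genes tested.

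**Figure D2:**
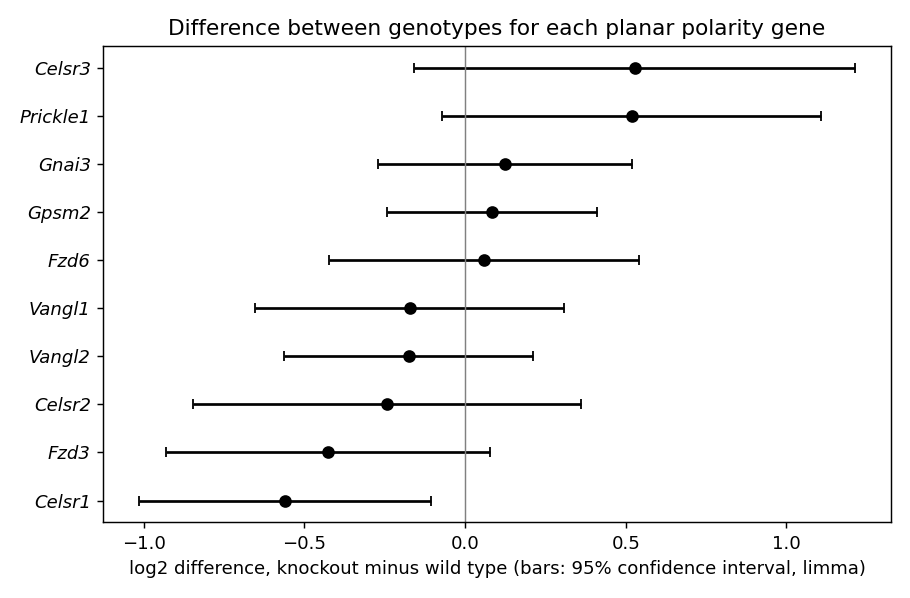
Log2 difference between knockout and wild type for each member (points) with its 95% confidence interval from limma (bars). The interval of Celsr1 lies below 0, from -1.01 to -0.11, and those of the other 9 members span 0.

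Celsr1 encodes a seven-pass cadherin of the junctions through which neighbouring cells share polarity. Libraries 1 to 4 of the wild type had 1196, 1187, 2010.0 and 1460.3 normalized counts of Celsr1, and the knockout libraries held 944, 807, 983 and 1175. Every knockout library was lower than every wild-type library, but knockout replicate 4 and the lower pair of wild-type libraries were nearly level. Celsr1 averaged 1463 ± 386 in wild-type and 977 ± 152 in knockout libraries (SD, n = 4 each), so the ratio of knockout to wild type was 0.668. The log2 difference of Celsr1 was -0.56 ± 0.21 (SE), an interval of 0.495 to 0.928 as a fold, and limma gave an unadjusted p of 0.0199 and, adjusted over all genes, 0.895. By unadjusted p it ranked 383 among the 18203 genes tested. In the authors' deposited table the unshrunken log2 fold change of Celsr1, knockout over wild type, was -0.58, with a p of 0.00832 and an adjusted p of 0.476. The Celsr1 difference was -0.40 (unadjusted p = 0.0557, limma) without wild-type replicate 3, its highest library, and -0.47 (0.0604) without knockout replicate 2, its lowest. Titles hold dates, and in the 2 libraries of the 1 date that occurs in both genotypes (replicate 2 of each) the ratio of Celsr1 was 0.680, while the other 6 libraries gave a log2 difference of -0.56.

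Celsr2 and Celsr3 are its paralogs, and Celsr2 is also found in polarised epithelia and cilia-bearing cells. Celsr2 had 1098, 821, 995 and 1332 normalized counts in the wild-type libraries 1 to 4 and 1553, 699, 832 and 675 in the knockout libraries. Knockout replicate 1 was the highest of all 8 libraries, and the other knockout libraries were among the lowest, so the genotypes overlapped. The means of Celsr2 were 1061.5 ± 214 and 939.9 ± 414 (SD, n = 4 each), and the log2 difference was -0.24 ± 0.27 (SE). Without knockout replicate 1 the log2 difference of Celsr2 was -0.51 (unadjusted p = 0.0373, adjusted p = 1.00, limma). Without knockout replicate 4, its lowest library, the Celsr2 difference was -0.11 (unadjusted p = 0.709, adjusted p = 0.999, limma). Celsr3 had 249, 134, 344 and 246 normalized counts in the wild-type libraries and 308, 327, 450.2 and 272 in the knockout libraries. Its means were 243 ± 85.7 and 339 ± 77.5 (SD, n = 4 each), and wild-type replicate 3 exceeded 3 of the 4 knockout libraries. The log2 difference of Celsr3 was 0.53 ± 0.31 (SE), an interval of 0.896 to 2.32 as a fold (unadjusted p = 0.118, adjusted p = 0.922, limma). In the pair of the shared date its ratio of knockout to wild type was 2.43, and the other 6 libraries gave a log2 difference of 0.28. Without wild-type replicate 2, its lowest library, the Celsr3 difference was 0.27 (unadjusted p = 0.331, adjusted p = 0.759, limma). Without wild-type replicate 3, the highest of the wild type, it was 0.72 (unadjusted p = 0.0446, adjusted p = 0.724, limma).

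**Figure D3:**
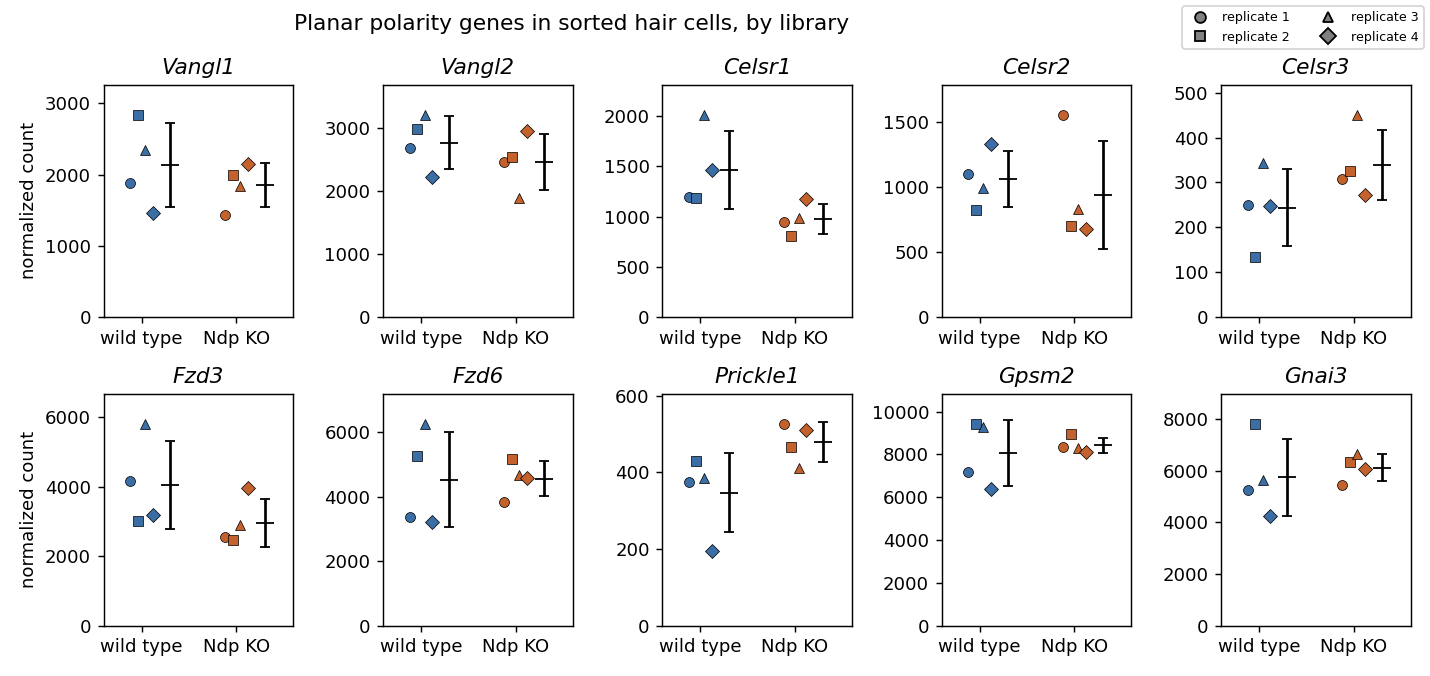
Normalized counts of the 10 members in each library, 1 panel per gene with its own linear axis from 0. Points are libraries (shape gives the replicate) and dashes and bars are the mean and SD of each genotype. Only the Celsr1 panel shows no overlap of the genotypes, with 807 to 1175 in the knockout and 1187 to 2010.0 in wild type.

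The frizzled genes Fzd3 and Fzd6 encode receptors that act redundantly in hair bundle orientation. Fzd3 had 4164, 3021, 5809 and 3194 normalized counts in the wild-type libraries 1 to 4 and 2545, 2459, 2889 and 3955 in the knockout libraries. Only knockout replicate 4 reached the wild-type range. The means of Fzd3 were 4047 ± 1278 and 2962 ± 688 (SD, n = 4 each), and the log2 difference was -0.43 ± 0.23 (SE), with an interval of 0.525 to 1.06 as a fold (unadjusted p = 0.0892, adjusted p = 0.917, limma). Without knockout replicate 4 the Fzd3 difference was -0.57 (unadjusted p = 0.0327) and without wild-type replicate 2 it was -0.55 (0.0402), with limma adjusted p of 0.999 and 0.527. Without wild-type replicate 3, its highest library, the Fzd3 difference was smaller, at -0.24 (unadjusted p = 0.262, adjusted p = 0.847, limma). Fzd6 had 3377, 5273, 6252 and 3208 normalized counts in wild type, where the libraries fell into a high and a low pair. The knockout libraries, with 3830.1, 5150.2, 4656 and 4588, lay between those pairs. Its means were 4527.5 ± 1483 and 4556 ± 545 (SD, n = 4 each), and the log2 difference was 0.06 ± 0.22 (SE), with an interval of 0.746 to 1.46 as a fold.

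The Vangl genes encode four-pass membrane proteins, and loss of Vangl2 disturbs bundle orientation in mice. Vangl2 had 2670.3, 2969, 3195 and 2210.2 normalized counts in the wild-type libraries 1 to 4 and 2449, 2534, 1878 and 2949.8 in the knockout libraries. The genotypes overlapped, with means of 2761 ± 425 and 2453 ± 441 (SD, n = 4 each) with the log2 difference at -0.18 ± 0.18 (SE). The interval of Vangl2 was 0.677 to 1.16 as a fold (unadjusted p = 0.340, adjusted p = 0.959, limma). Vangl1 had 1457 to 2833 normalized counts in wild type and 1434 to 2146 in the knockout. Its means were 2129 ± 592 and 1853 ± 306 (SD, n = 4 each), and the log2 difference was -0.17 ± 0.22 (SE), with an interval of 0.636 to 1.24 as a fold.

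Prickle1 encodes a cytoplasmic LIM-domain protein that binds Vangl proteins. Libraries 1 to 4 of the wild type had 376, 429.9, 386 and 195 normalized counts of Prickle1 and the knockout libraries held 526, 466, 411 and 510.3. Wild-type replicate 4 was far below the rest, and only wild-type replicate 2 exceeded a knockout library. The means were 347 ± 104 and 478 ± 51.4 (SD, n = 4 each), a ratio of 1.38. The log2 difference of Prickle1 was 0.52 ± 0.27 (SE), an interval of 0.951 to 2.16 as a fold (unadjusted p = 0.0794, adjusted p = 0.909, limma). It was 0.26 without wild-type replicate 4, its lowest library (unadjusted p = 0.207, adjusted p = 0.908, limma). Without wild-type replicate 2, the highest of the wild type, the Prickle1 difference was 0.64 (unadjusted p = 0.0456, adjusted p = 0.531, limma). In the pair of the shared date the ratio of Prickle1 was 1.08.

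Gpsm2, which encodes a scaffold that binds inhibitory G protein subunits, had 7183, 9427, 9290.5 and 6373 normalized counts in the wild-type libraries 1 to 4. The knockout libraries of Gpsm2 held 8353, 8947, 8316 and 8135, all inside the wild-type range. Its means were 8068 ± 1527 and 8438 ± 353 (SD, n = 4 each), and the log2 difference was 0.08 ± 0.15 (SE), with an interval of 0.844 to 1.33 as a fold. Gnai3 had 5269.8, 7818, 5659 and 4236 normalized counts in wild type and 5449, 6355, 6646 and 6057 in the knockout, again inside the wild-type range. The means of Gnai3 were 5746 ± 1507 and 6127 ± 512 (SD, n = 4 each), and the log2 difference was 0.12 ± 0.18 (SE), with an interval of 0.829 to 1.43 as a fold. Both differences turned negative without wild-type replicate 4, at -0.023 for Gpsm2 and -0.010 for Gnai3, and that of Fzd6 was -0.086 without it.

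The spread within a genotype differed. The coefficient of variation of Gpsm2 was 18.9% over wild-type and 4.18% over knockout libraries, and that of Gnai3 was 26.2% and 8.35%. It was larger in wild type for 8 of 10 members, all but Vangl2 and Celsr2, beside 70.4% of all genes tested. Without any 1 wild-type library in turn it was larger for 6 to 9 members, beside 64.7% to 67.7% of all genes. Wild-type replicate 4 was the lowest of the 8 libraries for Fzd6, Prickle1, Gpsm2 and Gnai3, and wild-type replicate 3 the highest for Vangl2, Celsr1, Fzd3 and Fzd6. The supporting cell sum was mostly Tectb and Tecta, which made up 64.9% to 77.0% of it in each library, and Calb1 made up 38.5% to 54.4% of the hair cell sum. Tectb was lowest in wild-type replicate 3 (106783 normalized counts, against 145735 to 263445 in the other 7). Wild-type replicate 3 also had the lowest log2 ratio of supporting to hair cell marker sums, -0.72, where the other wild-type libraries had 0.10 to 0.40 and the knockout libraries -0.51 to 0.11. The mean of that ratio was 0.03 ± 0.51 in wild-type and -0.11 ± 0.27 in knockout libraries (SD, n = 4 each; exact permutation test, two-sided, p = 0.629). The part of this marker ratio in the differences between genotypes was not tested.

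Because supporting cells and hair cells can both express planar polarity genes, each member was compared with that marker ratio over the 8 libraries. Pearson's r of the log2 values ran from -0.57 for Celsr3 to 0.13 for Gnai3. None of the 10 relations passed an exact permutation test (lowest adjusted p = 0.686). For Celsr3 the exact permutation p of r was 0.152, and Spearman's rho was -0.762 with an exact permutation p of 0.0368 (adjusted p = 0.368 over 10). Spearman's rho of the other 9 members lay between -0.238 and 0.190 (exact permutation, adjusted p = 1.00). Without knockout replicate 1 and wild-type replicate 3, the 2 libraries farthest from the median ratio, r was -0.810 for Celsr3 and ran from -0.509 to 0.469 for the other 9. Within a genotype, over only 4 libraries each, r had opposite signs in wild type and knockout for 7 of the 10 members, and the difference between genotypes was not tested.

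Ratios within a library do not depend on its scaling, so 5 pairs of related members were compared as log2 ratios of normalized counts. Celsr3 over Celsr2 was -2.17 ± 0.47 in wild-type and -1.41 ± 0.64 in knockout libraries (SD, n = 4 each), a difference of 0.77 (exact permutation test, two-sided, p = 0.0857, adjusted p = 0.429 over 5). In wild type it was -2.14, -2.60, -1.53 and -2.43 in libraries 1 to 4, and in the knockout -2.33, -1.10, -0.88 and -1.31, so 3 of the 4 knockout libraries lay above all wild-type libraries. Fzd3 over Fzd6 was -0.15 ± 0.47 and -0.64 ± 0.35 (SD, n = 4 each), a difference of -0.49 (exact permutation p = 0.200, adjusted p = 0.500). Celsr1 over Celsr2 differed by -0.32 (exact permutation p = 0.457, adjusted p = 0.762). Vangl2 over Vangl1 was 0.40 in both genotypes (SD 0.23 and 0.31, n = 4 each; exact permutation p = 1.00), and Gpsm2 over Gnai3 was 0.51 ± 0.19 and 0.46 ± 0.12 (SD, n = 4 each; exact permutation p = 0.771). The genotypes overlapped in all 5 ratios, and 0.0286 is the smallest p that 4 libraries against 4 allow.

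**Figure D4:**
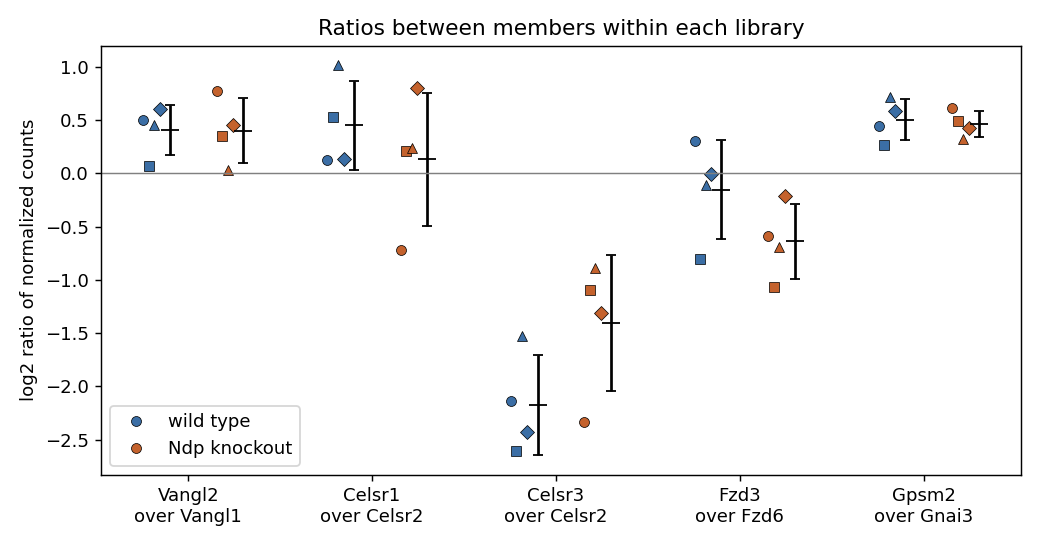
Log2 ratio of normalized counts between 2 members within each library, for 5 pairs. Points are libraries (shape gives the replicate), dashes and bars are the mean and SD of each genotype. The Vangl2 over Vangl1 ratio averages 0.40 in both genotypes, and Celsr3 over Celsr2 differs by 0.77 with overlapping libraries.

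The members were not alike in their pattern over the 8 libraries. Pearson's r of log2 values, given as a description with library scaling shared by all genes, was 0.906 between Gpsm2 and Fzd6, 0.822 between Gpsm2 and Gnai3, and -0.486 between Gpsm2 and Celsr2. Vangl2 followed Vangl1 with an r of 0.651 and Celsr3 with -0.480. Among 11968 named genes with a mean of at least 100 normalized counts, those most like Vangl2 were Cdh3 (P-cadherin, r = 0.949), Stom (stomatin, r = 0.947) and Scn11a (a sodium channel, r = 0.941). Those most like Gpsm2 were Eaf1 (r = 0.986), Hdlbp (vigilin, an RNA-binding protein, r = 0.986) and Kdm4b (a histone demethylase, r = 0.985). These neighbours are the highest of 11968 values over 8 libraries, and no test was made of them.

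A further 56 genes of planar polarity and bundle orientation were followed as 5 groups, and all 56 were tested. Limma, edgeR and DESeq2 called 0 of them. At an unadjusted p under 0.05, 1 of the 56 was lower and 0 were higher in limma, beside 2.47% and 3.1% of all genes tested. Their median log2 difference was 0.03, beside 0.02 for all genes tested. Of 14 other core genes and modulators, 9 had a positive and 5 a negative difference. Dvl3, a Dishevelled gene, averaged 2527 ± 597 normalized counts in wild-type and 2879 ± 107 in knockout libraries, and Smurf1, a ubiquitin ligase gene, had 3340.1 ± 1386 and 4287 ± 851 (SD, n = 4 each). Of 7 noncanonical Wnt ligands and receptors, 5 were positive and 2 negative. Wnt7a had 3530.4 ± 1087 and 2625 ± 679, and the Wnt receptor gene Ryk had 1764 ± 217 and 1866 ± 41.1 (SD, n = 4 each).

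The 6 genes of the Fat and Dachsous system, a second polarity pathway built around giant cadherins, had a median log2 difference of -0.29, with 4 negative and 2 positive. Fat4 had 208, 297, 221 and 178 normalized counts in wild type and 112, 227, 104 and 129 in the knockout. Knockout replicate 2 overlapped the wild-type range and the other knockout libraries lay below it, with a log2 difference of -0.71 ± 0.32 (SE; unadjusted p = 0.0483, adjusted p = 0.895, limma). Fat1 had 769 ± 249 and 571 ± 355 normalized counts, and Dchs1 had 249 ± 34.7 and 280.2 ± 133 (SD, n = 4 each). Dchs2 had the widest difference, 1.60 ± 1.13 (SE), on means of 28.6 and 48.9 normalized counts, and it was at 0 in wild-type replicate 1, so this value depends on the pseudocount of 1. Of 15 effector and ciliary genes, 7 were positive and 8 negative, and the abundant GTPase genes Cdc42 and Rac1 had 17320.0 ± 2673 and 16518 ± 971, and 7592 ± 1417 and 8131 ± 356 normalized counts (SD, n = 4 each).

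Of 14 other orientation genes, 7 were positive and 7 negative. Insc, the gene of an adaptor that joins Gpsm2 to the Par complex, averaged 17677 ± 2608 normalized counts in wild-type and 18310 ± 863 in knockout libraries (SD, n = 4 each). Gnai2, a paralog of Gnai3, had 16155 ± 2770 and 15694 ± 1775 (SD, n = 4 each). Per kb of exon, wild type held 4275 ± 733 of Gnai2, 1761 ± 462 of Gnai3 and 71.3 ± 24.9 of Gnai1 (SD, n = 4 each). Emx2 and Rock1 were named after their values were seen, because they were the 2 of the 56 genes whose genotypes did not overlap, both lower in the knockout, where 1.58% of all genes tested lay wholly lower and 1.46% wholly higher. Emx2, a transcription factor gene known for setting the reversal of bundle orientation in vestibular maculae, had 820.4, 747, 750.0 and 588 normalized counts in wild type and 578, 499, 585 and 579 in the knockout. Its log2 difference was -0.37 ± 0.18 (SE; unadjusted p = 0.0616, adjusted p = 0.903, limma), and wild-type replicate 4 was nearly level with the knockout. Rock1, a kinase of actin contraction, had 1640 to 2045 normalized counts in wild type and 1468 to 1600.4 in the knockout (unadjusted p = 0.0813, adjusted p = 0.911, limma).

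**Figure D5:**
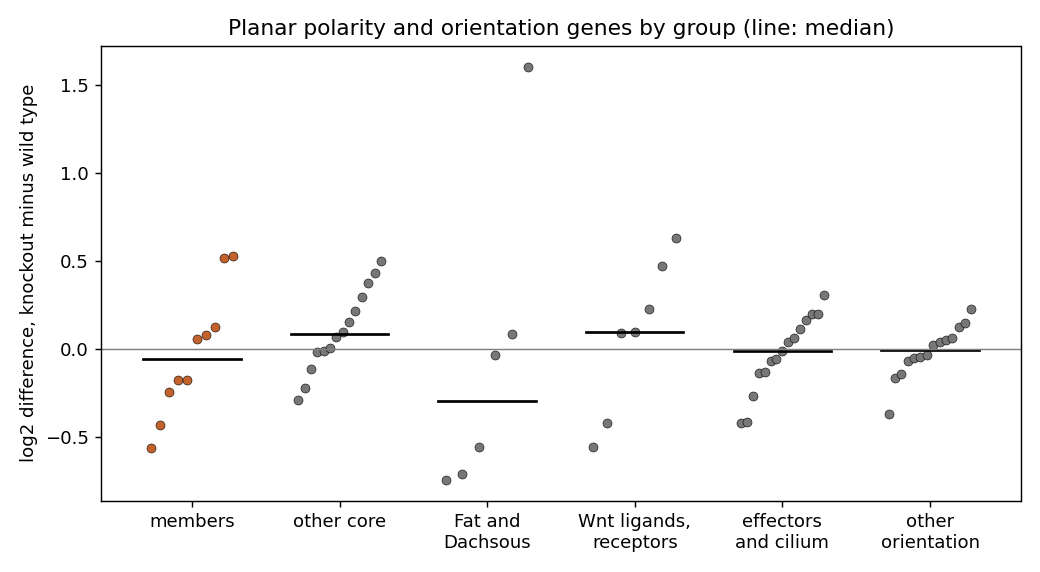
Log2 difference between knockout and wild type of the 10 members and of 56 further planar polarity and orientation genes in 5 groups. Points are genes and lines are group medians, which are -0.06 for the members, -0.29 for the Fat and Dachsous genes and 0.03 over all 56 further genes.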

How the data were processed

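RNA of sorted hair cells was sequenced in 4 wild-type and 4 Ndp knockout libraries from full-length cDNA made with SMART-Seq v4 and Nextera XT, per the labels' protocols. The authors deposited 1 table of normalized counts, a signal in which each library's counts share 1 scale, together with a comparison of the genotypes with log2 fold changes and p-values, per the file headers. Software listed by the submitters' processing notes, with no role given, is Salmon 0.14.2, DESeq2 1.26.0 and bcl2fastq 2.20, beside the mm10 build. Dividing each column by the worth of 1 read, found from the steps between low values, gave whole reads for 100.0% of 202744 values (tolerance 1e-06), although these may be rounded estimates. A floor of 3 reads was worth 2.34 to 3.49 normalized counts.

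Groups came from the genotype labels, and replicate numbers only name libraries, in accession order. Genotypes were compared with limma 3.58.1 (R 4.3.3, trend option) on log2(normalized count + 1), two-sided, with Benjamini-Hochberg adjustment over 18203 genes and a threshold of 0.05. Fold changes of low genes on this scale depend on the pseudocount and can lie far from those of count models. For Dchs2 the log2 difference was 1.60 in limma and 0.76 in edgeR. edgeR 4.0.16 and DESeq2 1.42.0 ran on the recovered reads, DESeq2 without independent filtering. In simulated data over 17546 genes, limma called 31 of 100 genes changed 2-fold and 69 of 100 changed 4-fold, with 3 false calls. Lengths are unions of GENCODE M21 exons, whose coordinates matched the table for all 10 members. Members, gene lists and tests were chosen with earlier results of these data known. The rule for named genes took all members, Ndp, the 3 genes with the highest r to Vangl2 and to Gpsm2 at a mean of at least 100, and from each further list genes at an unadjusted p under 0.05 and the 2 with the highest mean. Dchs2, Gnai1, Emx2, Rock1 and the cell type markers were named after their values were seen. Alternatives were pseudocounts of 0.1 and 5, no minimum or a minimum of 100, TMM-normalized CPM, edgeR, DESeq2, leaving out each library, and leaving out both libraries of the shared title date. Coding length and counts at an unadjusted p under 0.05 were added after seeing the data.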

Additional observations from a re-analysis of the deposited data

How the results depend on the processing

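The tests called 0 members and 0 of the further planar polarity and orientation genes under each of the 16 alternatives, and the lowest adjusted p of any member was 0.475. The number of all genes called, 1, was 34 with DESeq2, 0 with edgeR, TMM-normalized CPM, a minimum of 100, a pseudocount of 0.1 or without the shared date, and 0 to 2 without 1 library. The number of members at an unadjusted p under 0.05 was 0 to 3. The share of all genes at that threshold was not computed for the alternatives, so this count cannot be set against a background. Of the 10 log2 differences, 7 kept their sign. Without 1 library in turn, that of Fzd6 was -0.086 to 0.23, Gnai3 -0.010 to 0.28 and Gpsm2 -0.023 to 0.17, and the genotype difference of the log2 ratio Vangl2 over Vangl1 was -0.13 to 0.12 and of Gpsm2 over Gnai3 -0.12 to 0.029. The correlation r with the marker ratio was then -0.269 to 0.532 for Vangl1, -0.469 to 0.185 for Vangl2, -0.558 to 0.514 for Celsr1, -0.555 to 0.0335 for Celsr2, -0.751 to 0.274 for Fzd3, -0.580 to 0.125 for Fzd6 and -0.241 to 0.638 for Gnai3. Without the shared date it was -0.333 for Vangl1 and -0.374 for Gnai3. The cause was not tested. No paired analysis was possible because only a single title date occurs in both genotypes and the labels carry no replicate numbers shared between them. In the simulated data most 2-fold changes were missed. They were planted upward in genes drawn at random from all those tested, so this rate is not the power for these members. The SEs of the members ran from 0.15 (Gpsm2) to 0.31 (Celsr3), beside a median of 0.28 for all genes tested. Differences of the size seen here could still go uncalled.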
